A study of Mus musculus with 9 samples.

Results

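The genes described here are 10 regulators of alternative splicing that act in striated muscle, *Rbm20*, *Rbm24*, *Rbfox1*, *Rbfox2*, *Mbnl1*, *Mbnl2*, *Celf1*, *Celf2*, *Ptbp1* and *Srsf1*, chosen by their symbols among the 48820 genes of an RNA-seq table of perinatal mouse hearts. All 10 were in the table and all 10 passed the filter for testing. Whole hearts of C57BL/6J mice were sequenced at embryonic day 18.5 (E18.5d), postnatal day 1 (P1d) and postnatal day 7 (P7d), with 3 hearts at each stage and 9 in all. Every heart was labelled as wild type (WT), male and given no treatment, so the stages are told apart only by age. The values are FPKM, which count sequenced fragments relative to transcript length in kilobases and to 1e6 mapped fragments, for each gene as a whole. They show how much transcript of a regulator was present, not which exons were joined in any transcript.

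Alternative splicing lets a gene give different mRNAs, and in the heart many sarcomere, ion channel and signalling genes change from fetal to adult exons around birth. RNA-binding proteins of the MBNL and RBFOX families are known to favour adult exons in muscle, CELF1 and PTBP1 are known to hold exons in the fetal pattern, and RBM20 keeps a stretch of titin exons out of the mRNA. SR proteins such as SRSF1 bind exonic enhancers and recruit the core spliceosome, and hnRNP proteins often act against them.

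Depth, read from the steps between low FPKM values of single-transcript genes, was 25.6 to 45.8 in units of 1e6 fragments per heart. Labels and transcripts disagreed on sex in 4 hearts: E18.5d replicates 1 and 3 and P7d replicates 2 and 3 had 58.03 to 97.03 FPKM of *Xist*, the RNA of the inactive X chromosome, and 0 FPKM of the Y-linked genes *Ddx3y*, *Uty*, *Kdm5d* and *Eif2s3y*, while the other 5 hearts had at most 0.11 FPKM of *Xist*. Replicate 2 of P1d stood apart in its composition, with the highest column sum (1794160 FPKM) and the smallest share of that sum from protein-coding nuclear genes (28.2%, against 29.6% to 36.1% in the others). *Xist* was thus present in 2 of 3 hearts at E18.5d and at P7d and in 0 of 3 at P1d, so that P1d differs from both other stages in this respect too. The summed FPKM of 8 cardiomyocyte markers ran from 31884 to 40184 in all hearts, and the cardiomyocyte gene *Myl2* was the highest of them. The labels call the replicates biological, but do not say whether hearts came from separate litters.

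Of the 10 regulators, 3 were higher and 3 lower at P1d than at E18.5d, 3 rose and 2 fell between P1d and P7d, and 2 rose and 4 fell between E18.5d and P7d. These calls come from limma on log2(FPKM + 1) across 13618 genes, with a Benjamini-Hochberg adjusted p under 0.05. Of all genes tested, 46.0% were called at P1d against E18.5d (18.4% higher and 27.6% lower), 44.2% at P7d against P1d (15.5% higher and 28.6% lower) and 49.4% at P7d against E18.5d (12.5% higher and 36.9% lower). Counts of 6, 5 and 6 regulators out of 10 are therefore near the background, and the description below is of which regulators moved and in which direction. The median regulator changed by -0.00, 0.10 and -0.10 on the log2 scale in these comparisons, beside -0.06, -0.09 and -0.17 for the median of all genes tested. Scaling the columns by the median of ratios moved the median of all genes to 0.01, 0.02 and 0.01, and gave 3 higher and 2 lower, 6 higher and 1 lower, and 4 higher and 1 lower regulators, against 45.9%, 41.6% and 41.9% of all genes called (23.6% higher and 22.3% lower, 23.5% and 18.2%, and 23.2% and 18.7%). Changes relative to the median gene are those on that second scale, and they are given for the regulators whose calls differ between the scales. In whole hearts, fewer cells of a type and less RNA per cell cannot be told apart.

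**Figure D1:**
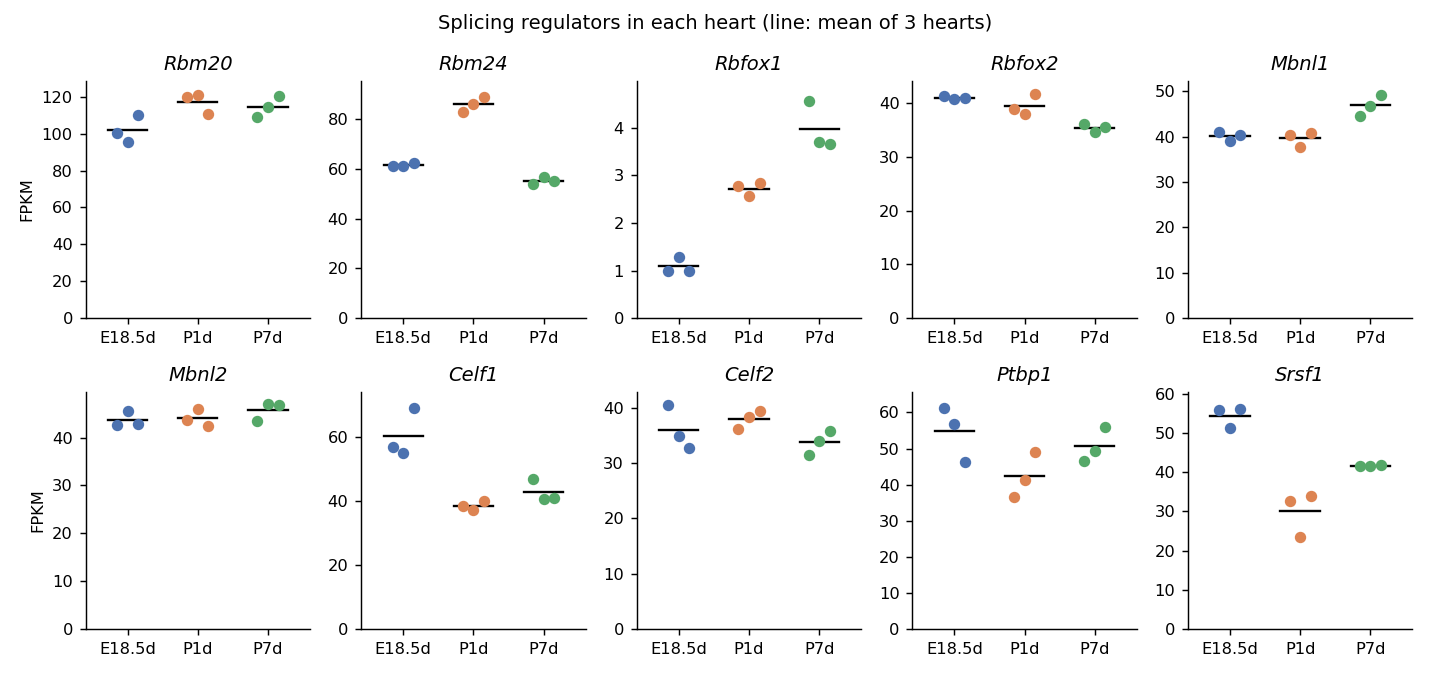
FPKM of the 10 splicing regulators (vertical axes, each from 0) in the 3 hearts of each stage (horizontal axes), with 1 point per heart and a line at the mean. *Rbfox1* climbed from 1.00 to 1.29 FPKM at E18.5d to 3.65 to 4.56 at P7d, *Rbm24* peaked at P1d, *Celf1* and *Srsf1* had their lowest means at P1d, and *Mbnl2* stayed between 42.38 and 47.00 FPKM in all 9 hearts.

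Between E18.5d and P1d, 4 regulators changed under every scaling tried: *Rbfox1* and *Rbm24* rose, and *Celf1* and *Srsf1* fell. The sequence before their start sites is shown because these are the genes that moved, and a motif match in it is a description, not a bound site. Each line gives up to 250 bases before the RefSeq start site (GRCm38.p6, plus strand), cut at the gene start given below where that falls inside. The windows of *Rbfox1* and *Rbm24* end short of the gene starts given below. Capitals mark letters that match, on either strand, a box read as CCAAT, the GC box read as GGGCGG, the TATA box read as TATAAA, the E-box read as CANNTG, the GATA site read as AGATAA, the E2F site read as TTTCCCGC, TTTGGCGC, TTTGCCGC or TTTCGCGC, or the MEF2 site.
*Rbfox1*, chr16:5884543-5884792: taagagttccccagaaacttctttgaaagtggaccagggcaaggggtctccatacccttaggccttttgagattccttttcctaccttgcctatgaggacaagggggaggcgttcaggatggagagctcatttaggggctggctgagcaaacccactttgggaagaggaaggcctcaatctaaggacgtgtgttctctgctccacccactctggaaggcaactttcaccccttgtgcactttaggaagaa
*Rbm24*, chr13:46418050-46418299: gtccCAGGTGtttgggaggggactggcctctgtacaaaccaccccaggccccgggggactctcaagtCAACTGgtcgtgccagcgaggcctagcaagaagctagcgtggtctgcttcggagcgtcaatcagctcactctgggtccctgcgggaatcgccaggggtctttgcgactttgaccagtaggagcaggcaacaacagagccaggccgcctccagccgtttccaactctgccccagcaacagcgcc
*Celf1*, chr2:90940147-90940381: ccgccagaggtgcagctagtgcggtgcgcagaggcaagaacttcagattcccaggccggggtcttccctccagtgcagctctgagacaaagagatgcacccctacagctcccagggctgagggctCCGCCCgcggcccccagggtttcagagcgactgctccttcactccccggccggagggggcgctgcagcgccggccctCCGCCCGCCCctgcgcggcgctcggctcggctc
*Srsf1*, chr11:88047123-88047372: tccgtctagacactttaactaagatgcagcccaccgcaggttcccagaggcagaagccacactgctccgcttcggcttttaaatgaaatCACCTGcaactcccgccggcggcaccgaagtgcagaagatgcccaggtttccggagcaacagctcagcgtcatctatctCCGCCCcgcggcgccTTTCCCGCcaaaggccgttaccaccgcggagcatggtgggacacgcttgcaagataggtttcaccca
For *Rbfox1* there were 2 windows, and the one shown, the more upstream, held none of these motifs and 2 CpG pairs. The *Rbm24* window held 2 E-boxes and 12 CpG pairs, and the *Celf1* window 3 GC boxes, of which 2 overlap, and 20 CpG pairs. The *Srsf1* window held 1 GC box, 1 E-box and 1 E2F site with 19 CpG pairs. Among all 32851 windows the median was 6 CpG pairs, and 66.2% held an E-box, 32.7% a GC box, 33.8% a CCAAT box, 12.4% a TATA box, 9.99% a GATA site, 1.86% an E2F site and 0.508% a MEF2 site. The table held windows for 8 of the 10 regulators, and *Rbm20* and *Rbfox2* were not among them.

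*Rbm20* (GRCm38, chr19:53677306-53867080, plus strand) codes for a muscle protein that represses exons of titin and of calcium-handling genes, and its loss causes cardiomyopathy. It measured 100.52, 95.60 and 109.87 FPKM in the E18.5d hearts, 119.66, 121.13 and 110.63 at P1d and 108.82, 114.41 and 120.17 at P7d. All P1d hearts were above all E18.5d hearts, by a narrow gap, and the P7d hearts overlapped both other stages. The change from E18.5d to P1d was 0.20 on the log2 scale (SE 0.07; limma adjusted p = 0.0386). It was 0.03 (adjusted p = 0.864) when the columns were brought to an equal sum, and it was lost in 5 of the 9 fits that left out 1 heart each (adjusted p up to 0.141). Between E18.5d and P7d the change was 0.17 (adjusted p = 0.0699), and 0.38 (adjusted p = 0.00307) with median of ratios.

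*Rbm24* (chr13:46418434-46431095, plus strand) codes for an RNA-binding protein needed for sarcomere assembly and for the inclusion of muscle exons. It measured 61.18, 60.94 and 62.20 FPKM at E18.5d, 82.69, 86.08 and 88.96 at P1d and 54.00, 56.62 and 55.09 at P7d. The 3 stages did not overlap: *Rbm24* was highest in the hearts of newborns and lowest a week after birth. The mean rose by 39.8% from E18.5d to P1d, which was 0.48 on the log2 scale (SE 0.05; limma adjusted p = 8.16e-05), and then fell by 35.7% to P7d (log2 change -0.63, SE 0.05; adjusted p = 2.77e-05). Both changes passed the threshold under each scaling tried and with any 1 heart left out. The fall from E18.5d to P7d was small (log2 change -0.15; adjusted p = 0.0307) and turned to 0.06 (adjusted p = 0.454) with median of ratios, and it was lost in 5 of the 9 fits without 1 heart. Its relative *Rbm38*, known for binding mRNAs of cell cycle genes, had 26.2 ± 1.86, 22.9 ± 2.22 and 26.2 ± 1.86 FPKM in the 3 stages (mean ± SD, n = 3 hearts). On the deposited scale it passed the threshold in none of the 3 comparisons. Among the 4 tested relatives of the regulators, 0 rose and 2 fell from P1d to P7d on that scale. With median of ratios, 1 rose and 1 fell. The shares of all genes that rose and fell were 15.5% and 28.6%, and 23.5% and 18.2% with median of ratios.

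*Rbfox1* (chr16:5885355-7411526, plus strand), one of the RBFOX proteins that read the same short motif in introns, had 1.00, 1.29 and 1.00 FPKM at E18.5d, 2.77, 2.56 and 2.83 at P1d and 4.56, 3.70 and 3.65 at P7d. Each stage lay above the one before it with no overlap. *Rbfox1* was the lowest of the 10 regulators in level and the one with the largest fold change: the P1d mean was 2.48-fold and the P7d mean 3.62-fold that of E18.5d. On the log2(FPKM + 1) scale, which understates changes at such low values, it changed by 0.83 from E18.5d to P1d (limma adjusted p = 0.000244), 0.41 from P1d to P7d (adjusted p = 0.0114) and 1.24 from E18.5d to P7d (SE 0.11; adjusted p = 2.10e-05). All 3 increases passed the threshold under each scaling and with any 1 heart left out. At the depth of these libraries its values correspond to 25.6 to 49.0 fragments per kilobase of transcript at E18.5d and 154 to 168 at P7d.

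*Rbfox2* (chr15:77078990-77307004, minus strand), the family member with the higher level in these hearts, had 41.41, 40.80 and 40.98 FPKM at E18.5d, 38.89, 37.94 and 41.69 at P1d and 36.10, 34.74 and 35.56 at P7d. The P7d hearts were below all others, and the E18.5d and P1d hearts overlapped. Its level fell by 13.6% from E18.5d to P7d (log2 change -0.21, SE 0.05; limma adjusted p = 0.0103), a change that disappeared with median of ratios (0.00091; adjusted p = 0.992). The change from P1d to P7d (log2 change -0.15; adjusted p = 0.0443) was -0.02 with median of ratios (adjusted p = 0.796) and was lost in 8 of the 9 fits without 1 heart, and the change from E18.5d to P1d was -0.06 (adjusted p = 0.419). *Rbfox3*, the neuronal member, had a mean of at most 0.0667 FPKM at any stage and was not tested.

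*Mbnl1* (chr3:60472830-60629750, plus strand), the muscleblind protein whose sequestration by repeat RNA brings back fetal splicing in myotonic dystrophy, had 41.11, 39.00 and 40.41 FPKM at E18.5d, 40.38, 37.77 and 40.89 at P1d and 44.57, 46.86 and 49.21 at P7d. The P7d hearts were above all others, and the 2 earlier stages overlapped. It rose by 18.1% from P1d to P7d (log2 change 0.23, SE 0.06; limma adjusted p = 0.0100) and stood 16.7% above its E18.5d mean on P7d (log2 change 0.22, SE 0.06; adjusted p = 0.0127). Median of ratios gave larger changes, 0.37 (adjusted p = 0.00178) and 0.42 (adjusted p = 0.000683), whereas for P7d against E18.5d an equal column sum gave 0.17 (adjusted p = 0.252) and 2 of the 9 fits without 1 heart lost the call (adjusted p up to 0.0516). The rise from P1d was 0.18 (adjusted p = 0.0925) with a covariate for *Xist*. Between E18.5d and P1d it changed by -0.02 (95% confidence interval -0.15 to 0.11).

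*Mbnl2* (chr14:120275669-120431697, plus strand), its close relative, had 42.57, 45.66 and 42.93 FPKM at E18.5d, 43.65, 46.07 and 42.38 at P1d and 43.46, 47.00 and 46.72 at P7d. All 3 stages overlapped, and the adjusted p was 0.906, 0.490 and 0.397 in the 3 comparisons. The 95% confidence interval of its change was -0.12 to 0.14 on the log2 scale from E18.5d to P1d and -0.07 to 0.20 from E18.5d to P7d. With median of ratios the latter was 0.27 (adjusted p = 0.00606) and the change from P1d to P7d 0.18 (adjusted p = 0.0354). Of the 9 relatives of the 10 regulators, 4 were tested. *Mbnl3*, known from muscle precursors, fell from 3.56 ± 0.291 FPKM before birth to 1.78 ± 0.238 on P1d (log2 change -0.71; limma adjusted p = 0.000432) and had 1.89 ± 0.125 FPKM on P7d.

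*Celf1* (chr2:90940382-91019497, plus strand), which competes with MBNL proteins for many of the same exons, had 56.76, 55.05 and 69.04 FPKM at E18.5d, 38.40, 37.09 and 39.91 at P1d and 46.76, 40.55 and 40.93 at P7d. All P1d and P7d hearts lay below the E18.5d hearts. The mean fell by 36.2% from E18.5d to P1d (log2 change -0.63, SE 0.09; limma adjusted p = 0.000533) and fell by 29.1% from E18.5d to P7d (log2 change -0.48, SE 0.09; adjusted p = 0.00214). Both decreases passed the threshold under each scaling and with any 1 heart left out. Leaving out 1 heart gave log2 changes of -0.69 to -0.53 and -0.55 to -0.38, while the scalings gave -0.80 (equal column sum) to -0.55 (median of ratios) for the first and -0.53 to -0.27 (adjusted p = 0.0424 with median of ratios) for the second. The P7d hearts lay above the P1d hearts, but the change of 0.15 was not called (adjusted p = 0.225), other than with median of ratios (0.28; adjusted p = 0.0411).

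*Celf2* (chr2:6539694-7509563, minus strand), the other CELF protein with a sizeable level in these hearts, had 40.41, 34.92 and 32.78 FPKM at E18.5d, 36.22, 38.42 and 39.40 at P1d and 31.47, 34.06 and 35.77 at P7d. The E18.5d hearts spanned nearly the whole range of the gene. No comparison passed the threshold (adjusted p = 0.462, 0.131 and 0.407), and the 95% confidence interval for P1d against E18.5d was -0.11 to 0.27 on the log2 scale. Its exons share 1961 bases with the lincRNA *Gm26565* on the opposite strand, which had at most 2.20 FPKM. The library kit is not stated to keep strand, so reads of an overlapping pair cannot be told apart. *Celf3*, *Celf4*, *Celf5* and *Celf6* had means of at most 0.537 FPKM at any stage and were not tested.

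*Ptbp1* (chr10:79854427-79864771, plus strand), the polypyrimidine tract binding protein that represses muscle and neuronal exons, had 61.36, 56.88 and 46.28 FPKM at E18.5d, 36.48, 41.20 and 49.13 at P1d and 46.43, 49.38 and 56.03 at P7d. Its hearts were widely spread within E18.5d and within P1d, and the hearts of all stages overlapped. The change from E18.5d to P1d was -0.37 on the log2 scale (SE 0.13; limma adjusted p = 0.0421) and -0.29 (adjusted p = 0.0997) with median of ratios. Leaving out 1 heart gave -0.48 to -0.27 and lost the call in 6 of 9 fits (adjusted p up to 0.140). Its exons share bases with 3 genes of the opposite strand, *E130317F20Rik*, *Gm17134* and *Plppr3*, none of them above 2.37 FPKM in any heart. The changes to P7d, 0.26 from P1d (adjusted p = 0.132) and -0.11 from E18.5d (adjusted p = 0.516), were not called. Of the 4 other scalings, 3 called the one from P1d, among them median of ratios (0.39; adjusted p = 0.0393).

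*Ptbp2*, the relative known to take over from PTBP1 in neurons, had a course of its own, with 38.9 ± 1.25, 57.5 ± 4.04 and 30.5 ± 1.58 FPKM. It rose by 0.55 on the log2 scale to P1d (limma adjusted p = 0.000187) and then changed by -0.89 to P7d (adjusted p = 2.06e-05), with no overlap between stages. *Ptbp3* had 18.8 ± 0.805, 21.4 ± 1.33 and 17.9 ± 1.22 FPKM, and its only call on the deposited scale was a decrease from P1d to P7d (log2 change -0.25; adjusted p = 0.0197) that no other scaling kept. With median of ratios it was instead called higher at P1d against E18.5d (0.25; adjusted p = 0.0140), as it was with quantile normalization (0.21; adjusted p = 0.0264) and an equal sum of protein-coding nuclear genes (0.20; adjusted p = 0.0499). Neuronal markers were near 0 in these hearts, with a sum over 5 genes of at most 6.48 FPKM.

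*Srsf1* (chr11:88047373-88053755, plus strand), an SR protein needed in cardiomyocytes for the postnatal splicing of *Camk2d*, had 55.92, 51.27 and 56.07 FPKM at E18.5d, 32.66, 23.52 and 33.91 at P1d and 41.49, 41.70 and 41.98 at P7d. The stages did not overlap: *Srsf1* was highest before birth, lowest in newborns and intermediate at P7d. It fell by 44.8% from E18.5d to P1d (log2 change -0.85, SE 0.12; limma adjusted p = 0.000381) and rose by 38.9% from P1d to P7d (log2 change 0.48, SE 0.12; adjusted p = 0.00941). The lowest value was that of P1d replicate 2, the heart with the highest column sum, and without it the decrease was -0.69 (adjusted p = 7.26e-05) and the rise from P1d to P7d 0.32 (adjusted p = 0.00347). With a covariate for *Xist* the rise from P1d to P7d was 0.43 (adjusted p = 0.0610). Between E18.5d and P7d the change was -0.37 (adjusted p = 0.0250), or -0.17 (adjusted p = 0.301) with median of ratios, and it was lost in 5 of the 9 fits without 1 heart. The sum of 5 proliferation markers moved in the same order, from 251 to 263 FPKM at E18.5d to 55.9 to 75.3 at P1d and 113 to 124 at P7d, and its part in the *Srsf1* values was not tested.

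The changes from E18.5d to P1d of *Rbm24*, *Rbfox1*, *Celf1* and *Srsf1* were also fitted with *Xist* taken into account. With a covariate for *Xist* above 1 FPKM they were 0.50, 0.68, -0.63 and -0.81 on the log2 scale, all past the threshold (limma adjusted p = 0.00111, 0.00225, 0.00511 and 0.00469). Without the 4 hearts that had *Xist*, which leaves 1 E18.5d heart, 3 P1d hearts and 1 P7d heart, they were 0.49, 0.70, -0.51 and -0.77, with an adjusted p of 0.0602, 0.0629, 0.0586 and 0.108. In that fit the lone hearts are assumed to vary like those of P1d. The sizes stayed near those of all 9 hearts, while the lower *Celf1* of P7d against E18.5d shrank from -0.48 to -0.23 (adjusted p = 0.336).

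**Figure D2:**
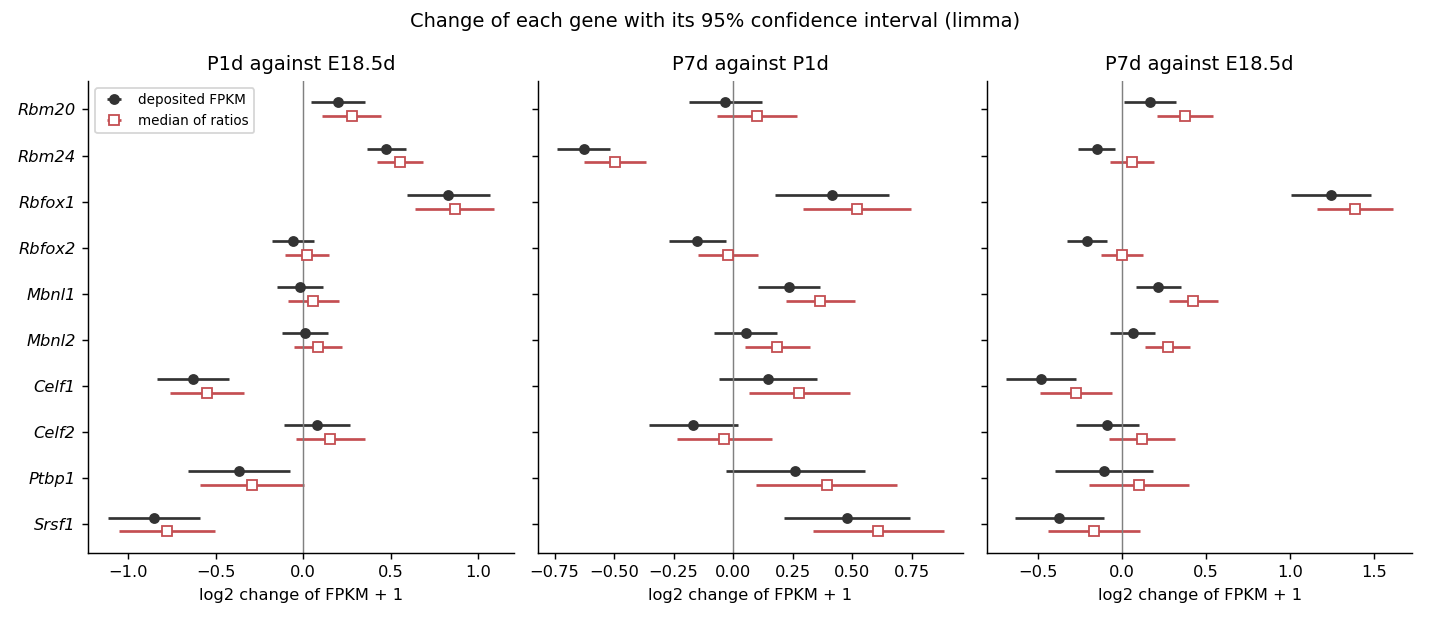
Log2 change of FPKM + 1 (horizontal axes) of each regulator (vertical axis) in the 3 comparisons, with 95% confidence intervals from limma; filled circles are the deposited FPKM and open squares the same values scaled by the median of ratios. *Rbm24*, *Rbfox1*, *Celf1* and *Srsf1* lie away from 0 on both scales at P1d against E18.5d, while at P7d against E18.5d the intervals of *Rbm24*, *Rbfox2* and *Srsf1* leave 0 out on the deposited scale and hold it on the other.

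Because FPKM are per length, levels can be set in order within a stage. *Rbm20* was the highest regulator at each stage, with means of 102.0, 117.1 and 114.5 FPKM, and its hearts did not overlap those of the next gene. *Rbfox1* was the lowest at each stage, also without overlap. *Rbm24* was the next after *Rbm20* throughout, but its hearts were separate from those of the following gene only at P1d. At E18.5d *Rbm24*, *Celf1*, *Ptbp1* and *Srsf1* formed a run in which each neighbour overlapped the next, at means of 61.4, 60.3, 54.8 and 54.4 FPKM, and all the *Srsf1* hearts were above those of the next gene, *Mbnl2*. At P1d the 6 genes from *Mbnl2* (44.0 FPKM) to *Celf2* (38.0 FPKM) overlapped from neighbour to neighbour, and *Srsf1* lay below them. By P7d the run reached from *Rbm24* (55.2 FPKM) down to *Srsf1* (41.7 FPKM), and *Rbfox2* and *Celf2* came below it.

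Ratios of a pair of regulators within the same heart do not depend on how the columns are scaled. Of 6 ratios, 4 differed over the stages by an exact permutation test of the F statistic over all assignments of the 9 hearts to the 3 stages, whose smallest possible p is 0.00357 (Benjamini-Hochberg over the 6 ratios). The log2 ratio of *Rbfox1* to *Rbfox2* was -5.37, -4.98 and -5.36 at E18.5d, -3.81, -3.89 and -3.88 at P1d and -2.98, -3.23 and -3.28 at P7d. So *Rbfox1* stood at 0.0265 of the level of *Rbfox2* before birth, at 0.0688 on P1d and at 0.111 on P7d, with separate stages (exact p = 0.00357, adjusted p = 0.0107). *Rbm24* to *Rbm38* averaged 1.23 ± 0.10, 1.91 ± 0.13 and 1.08 ± 0.07 (log2, mean ± SD, n = 3; exact p = 0.00357, adjusted p = 0.0107), which was highest in newborns and did not overlap between stages.

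*Mbnl1* to *Celf1*, the balance of a pair known to oppose each other, was -0.47, -0.50 and -0.77 on the log2 scale at E18.5d, 0.07, 0.03 and 0.03 at P1d and -0.07, 0.21 and 0.27 at P7d (exact p = 0.0143, adjusted p = 0.0214). *Celf1* transcripts were thus above those of *Mbnl1* in each E18.5d heart, while in the postnatal hearts *Mbnl1* was above *Celf1* in all but P7d replicate 1. Most of this difference stood between E18.5d and P1d, where *Celf1* fell and *Mbnl1* did not pass the threshold, and the P1d and P7d hearts overlapped. *Celf1* to *Celf2* averaged 0.74 ± 0.30, 0.02 ± 0.07 and 0.34 ± 0.20 (exact p = 0.0107, adjusted p = 0.0214), and lost its call without E18.5d replicate 2 (adjusted p = 0.0696), E18.5d replicate 3 (0.0514) or P1d replicate 2 (0.0750). In this ratio the P7d hearts overlapped the E18.5d hearts, and the P1d hearts lay below both. *Mbnl1* to *Mbnl2* averaged -0.12 ± 0.09, -0.15 ± 0.12 and 0.04 ± 0.04 (exact p = 0.0964, adjusted p = 0.0964), with all P7d hearts above the others. *Rbm20* to *Ptbp1* averaged 0.90 ± 0.30, 1.48 ± 0.28 and 1.18 ± 0.07 (exact p = 0.0821, adjusted p = 0.0964), and its hearts overlapped between stages.

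**Figure D3:**
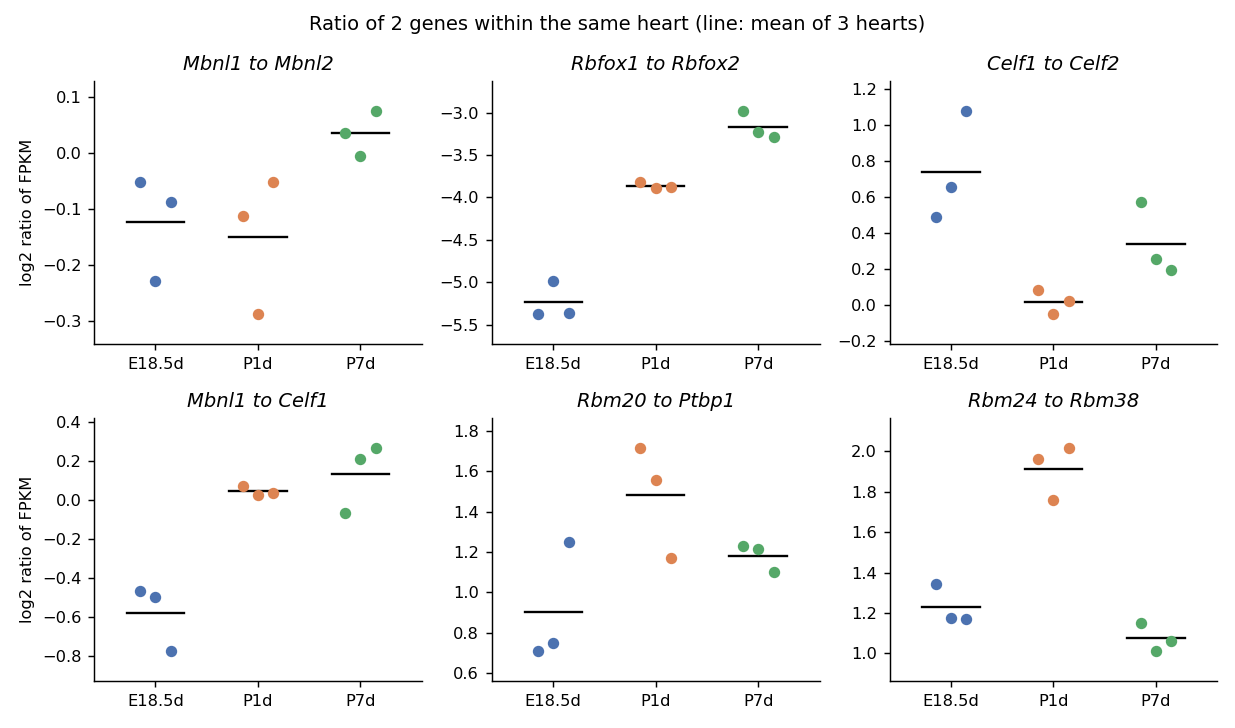
Log2 ratio of FPKM of 2 genes within each heart (vertical axes) by stage (horizontal axes), with 1 point per heart and a line at the mean of 3; the vertical axes do not start at 0 and differ between panels. *Rbfox1* to *Rbfox2* rises through all 3 stages, *Mbnl1* to *Celf1* moves from -0.77 to -0.47 at E18.5d to values near 0 or above after birth, and *Rbm24* to *Rbm38* is highest at P1d.

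The other SR proteins, the family of *Srsf1* that promotes exon inclusion, were mostly lower at P1d than before birth. Of 11 tested, Tra2 proteins included, 7 were lower and 2 higher at P1d than at E18.5d, and 8 were lower and 1 higher at P7d, with medians of -0.46 and -0.44 on the log2 scale beside -0.06 and -0.17 for all genes. Among all genes tested 27.6% were lower and 18.4% higher at P1d, and 36.9% and 12.5% at P7d. With median of ratios 5 of the 11 were lower and 2 higher at P7d (median -0.24), beside 18.7% and 23.2% of all genes. *Srsf7* fell from 28.3 ± 0.781 FPKM before birth to 10.9 ± 1.63 on P1d (log2 change -1.30; limma adjusted p = 9.76e-06) and *Tra2a*, which reads purine-rich enhancers, from 36.4 ± 1.59 to 15.3 ± 1.34 (-1.19; adjusted p = 4.42e-06). *Srsf5* went the other way, from 129.7 ± 3.33 to 281.9 ± 15.5 FPKM (1.11; adjusted p = 6.15e-06) and back to 182.3 ± 16.8 at P7d. *Srsf10* rose to P1d as well (0.28; adjusted p = 0.00471), though not with an equal column sum (0.11; adjusted p = 0.385). *Srsf3* and *Tra2b* fell between E18.5d and P7d (-0.65 and -0.48; adjusted p = 0.00029 and 0.00237).

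The kinases that phosphorylate SR proteins and the importin that carries them into the nucleus made up 9 genes. Of these, 3 were lower at P1d than at E18.5d and 5 at P7d, with none higher and medians of -0.03 and -0.38. Among all genes tested 27.6% and 36.9% were lower, and 18.4% and 12.5% higher. With median of ratios 3 were lower and 1 higher at P1d, and 4 lower and 0 higher at P7d. On that scale 22.3% and 18.7% of all genes were lower, and 23.6% and 23.2% higher. *Srpk1*, the cytoplasmic SR protein kinase, averaged 23.97, 12.52 and 17.56 FPKM in the 3 stages, a fall (log2 change -0.89; limma adjusted p = 3.16e-05) followed by a rise (0.45; adjusted p = 0.00160). *Prpf4b* and the importin *Tnpo3* fell to P1d (-0.66 and -0.39; adjusted p = 0.000198 and 0.000405). *Clk4*, a nuclear kinase, fell between E18.5d and P7d (-0.51; adjusted p = 0.00052), with 38.1 ± 2.96 and 37.3 ± 2.28 FPKM at the 2 earlier stages and 26.4 ± 1.64 at the last.

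Of 24 hnRNP proteins, 12 were lower and 1 higher at P1d than at E18.5d, and 20 were lower and none higher at P7d, with median log2 changes of -0.36 and -0.45. Among all genes tested 27.6% and 36.9% were lower, and 18.4% and 12.5% higher. With median of ratios 11 were lower and 2 higher at P1d, and 10 were lower and none higher at P7d. On that scale 22.3% and 18.7% of all genes were lower, and 23.6% and 23.2% higher. *Hnrnpa1*, which represses exons through silencers, fell from means of 188.9 FPKM at E18.5d and 169.3 on P1d to 102.7 on P7d (P7d against E18.5d -0.88; limma adjusted p = 4.70e-05). *Hnrnpa2b1* had its lowest level at P1d, with 264.0 ± 19.4, 132.8 ± 20.5 and 174.2 ± 9.10 FPKM (P1d against E18.5d -0.99; adjusted p = 8.58e-05). On the deposited scale *Hnrnpl* alone was higher at P1d (0.45; adjusted p = 0.000534), a call lost with an equal column sum. From P1d to P7d, 2 hnRNP genes rose and 7 fell, beside 3 and 3 of the SR and Tra2 genes and 1 and 3 of the kinases and the importin, and beside 15.5% higher and 28.6% lower among all genes. With median of ratios these counts were 4 and 4, 3 and 3, and 2 and 3, beside 23.5% and 18.2%.

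The other tissue-restricted or widely acting regulators gave 1 higher and 8 lower of 18 tested at P1d and 0 higher and 15 lower at P7d (medians -0.27 and -0.42), or 1 higher and 11 lower at P7d with median of ratios. Among all genes tested, 18.4% were higher and 27.6% lower at P1d, 12.5% and 36.9% at P7d, and 23.2% and 18.7% at P7d with median of ratios. *Khdrbs3*, a STAR protein, fell to P1d (-0.82; limma adjusted p = 1.59e-05) and *Sfpq* fell to P7d (-0.66; adjusted p = 0.000135). *Rbpms2*, known from smooth and heart muscle, had 29.2 ± 1.32, 27.8 ± 2.79 and 19.3 ± 1.06 FPKM and fell between the first and the last stage (-0.57; adjusted p = 0.000397). Of 28 core spliceosome proteins, 2 were higher and 12 lower at P1d, and 0 were higher and 23 lower at P7d (medians -0.19 and -0.37), which became 3 higher and 10 lower with median of ratios. The Sm proteins *Snrpf* and *Snrpd1* fell the most of these to P1d (-1.43 and -1.41; adjusted p = 5.62e-05 and 4.83e-05), while *Sf3b1* of the U2 particle rose by 0.47 (adjusted p = 0.00286) and fell again to P7d (-0.64; adjusted p = 0.000584). From P1d to P7d, 2 core spliceosome genes were higher and 12 lower on the deposited scale, and 7 higher and 5 lower with median of ratios. The shares among all genes were 15.5% and 28.6%, and 23.5% and 18.2%.

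**Figure D4:**
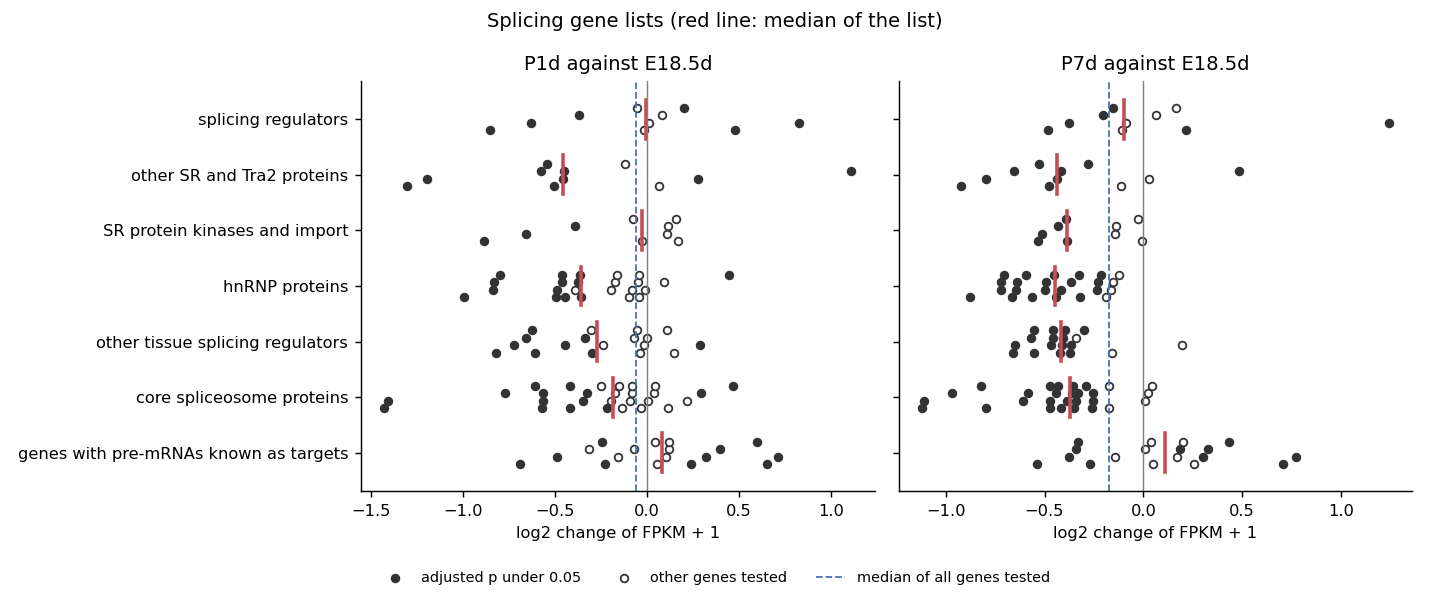
Log2 change of FPKM + 1 (horizontal axes) of the genes tested in each list (rows) at P1d and at P7d against E18.5d; filled points have a limma adjusted p under 0.05, red lines are list medians and the dashed line is the median of all genes tested. The medians of the SR, hnRNP, tissue regulator and core spliceosome lists lie left of the dashed line in both panels, and that of the genes known as targets lies right of it.

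Genes whose pre-mRNAs are known targets of the 10 regulators were measured only as whole genes. Of 18, 6 were higher and 4 lower at P1d than at E18.5d, and 6 were higher and 5 lower at P7d (medians 0.08 and 0.11), or 10 higher and 1 lower at P7d with median of ratios. Among all genes tested, 18.4% were higher and 27.6% lower at P1d, 12.5% and 36.9% at P7d, and 23.2% and 18.7% at P7d with median of ratios. The titin gene *Ttn*, the best known RBM20 target, had 1137 ± 57.1, 1183 ± 124 and 1308 ± 69.4 FPKM and was not called in any comparison (adjusted p = 0.642, 0.188 and 0.0774), though it was higher on P7d than before birth with median of ratios (0.41; adjusted p = 0.00449). *Ryr2*, the calcium release channel, rose from 173.2 ± 4.25 FPKM to 262.7 ± 17.5 at P1d and had 283.6 ± 9.66 at P7d (P7d against E18.5d 0.71; limma adjusted p = 2.25e-05). The calcium channel gene *Cacna1c* rose to P1d (0.66; adjusted p = 0.000491) and fell again to P7d (-0.61; adjusted p = 0.000889), with 105.2 ± 11.1, 166.2 ± 16.8 and 108.6 ± 5.68 FPKM.

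*Insr*, whose exon choice CELF1 and MBNL1 oppose each other on, was higher at P1d by 0.71 (limma adjusted p = 0.000389) and at P7d by 0.32 (adjusted p = 0.0217) than at E18.5d. *Mef2d*, a muscle transcription factor with a tissue-specific exon, was higher at P7d by 0.44 (adjusted p = 0.000878). *Pkm*, the pyruvate kinase gene whose exons PTBP1 and hnRNP A1 select, fell from 684.7 ± 21.1 to 424.8 ± 21.1 FPKM at P1d (-0.69; adjusted p = 2.02e-05) and had 543.5 ± 8.19 at P7d. *Actn1*, a PTBP1 target in smooth muscle, fell to P1d (-0.49; adjusted p = 0.000545), and *Tnnt2*, cardiac troponin T, was lower on P7d than before birth (-0.54; adjusted p = 0.000771).

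Over the 9 hearts, the genes whose log2(FPKM + 1) followed a regulator most closely are given as a description only, since all the points share libraries and stages. *Srsf1* was followed by *Mmd*, *Foxk2* and the replication factor gene *Cdc45* (Pearson r = 0.995, 0.990 and 0.985). *Rbm24* was followed by the Wnt receptor gene *Fzd5*, *1500011B03Rik* and *Taf7* (0.991, 0.988 and 0.988), and *Rbfox1* by the mitochondrial carrier gene *Ucp3*, *Dact1* and *Ttc12* (0.988, 0.987 and 0.986). *Rbfox2* followed *Clcn5*, *Med14* and *Itfg1* (0.993, 0.991 and 0.986), and *Celf1* followed *Npepps*, *Zmat1* and *Rspry1* (0.989, 0.985 and 0.978). For the other regulators, the closest genes were less close, with *Ankrd52* for *Mbnl1* (0.974), *Rcc2* for *Ptbp1*, *Pknox2* for *Mbnl2* (0.947), *Ptpn4* for *Rbm20* (0.945) and *Nfu1* for *Celf2* (0.906).

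Marker sums of other cell types differed between stages beside the regulators, and their part in the values above was not tested. The summed FPKM of 6 fibroblast markers was 1306 to 1351 at E18.5d, 1028 to 1353 at P1d and 1476 to 1544 at P7d, and that of 6 endothelial markers 342 to 375, 388 to 426 and 441 to 459. Smooth muscle and pericyte markers (5 genes) summed to 134 to 194, 148 to 208 and 210 to 224, and macrophage markers (5 genes) to 42.2 to 55.4, 62.4 to 92.0 and 58.7 to 64.7. Of the 6 fibroblast markers, 1 was called higher and 0 lower at P7d against E18.5d, beside 12.5% and 36.9% of all genes tested. Mean *Dcn* went from 184.6 FPKM at E18.5d to 296.7 at P7d, but mean *Postn* from 501.7 to 455.3 and mean *Tcf21* from 26.3 to 24.1. Among the macrophage markers, mean *Adgre1* went from 3.18 FPKM at E18.5d to 2.52 at P1d, against the sum. The endothelial sums did not overlap between stages, though from P1d to P7d *Kdr* and *Cdh5* rose, *Emcn* fell and the other 3 markers were not called (median log2 change -0.09). The smooth muscle sums overlapped between E18.5d and P1d. At P7d against E18.5d, 2 of these 5 genes were called higher and 1 lower (median log2 change -0.08). Mean *Rgs5* went from 34.8 FPKM at E18.5d to 102.8 at P7d, and mean *Tagln* from 74.2 to 41.1. Erythroid markers (5 genes) ranged from 5209 to 15405 FPKM over all hearts, with P7d below P1d and E18.5d overlapping both. Skeletal muscle markers (5 genes) summed to 9.49 to 12.6 FPKM at E18.5d, 5.49 to 6.28 at P1d and 2.51 to 3.79 at P7d, far under the cardiomyocyte sums of 31884 to 34728, 34934 to 40184 and 36452 to 38022.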

How the data were processed

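RNA-seq of 9 whole hearts was used, 3 per stage. The authors deposited FPKM values in a table of 48820 genes with 1 column per heart, and 0 columns belonged to no sample. The submitters' processing notes name STAR and the builds GRCm38 and mm10, and the counting tool and annotation are not given in the sources used here. Samples were grouped by stage from their labels. The 10 members and all gene lists were chosen with earlier results of these data known.

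Values were transformed to log2(FPKM + 1). Genes averaging 1 FPKM or more over the hearts (13618) entered 1 limma fit of all 9 hearts (limma 3.58.1, R 4.3.3, eBayes with trend, no covariates). P-values were adjusted by Benjamini-Hochberg over these genes, and calls had an adjusted p under 0.05. The fit was tested on simulated data. Within-heart ratios were tested with exact permutation of the F statistic, counting the assignments with an F at least as large. Python 3.11.15, scipy 1.17.1, numpy 2.4.6, pandas 2.3.3 and matplotlib 3.10.9 were used.

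FPKM are not counts, so depth was read from the steps of low values: 90.3% to 92.7% of those of single-transcript genes were whole multiples of 1 fragment within a tolerance of 0.15. The members have several transcripts each, so their fragment counts were not recovered. *Srsf1* is listed under 2 identifiers with the same 9 values and was counted once. Positions are those of GENCODE M21 (GRCm38), and start-site windows are from RefSeq (GRCm38.p6). Named by rule were all members, their relatives, up to 3 largest called changes in each direction per list, and the 3 genes closest to each member by Pearson correlation. Of these 3, only the closest is given for *Mbnl1*, *Mbnl2*, *Rbm20*, *Celf2* and *Ptbp1*. A gene that this rule names (1 gene) is left out here. Alternatives covered the pseudocount, the filter, column scaling, eBayes, the stages fitted, the replicate number as a block, *Xist*, the size of change and leaving out each heart.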

Additional observations from a re-analysis of the deposited data

How the results depend on the processing

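The 3 higher and 3 lower regulators at P1d against E18.5d stayed within 1.5 times of these counts under each scaling. At P7d against P1d the 3 higher became 5 with an equal sum of protein-coding nuclear genes, 6 with median of ratios, 5 with quantile normalization and 1 with a covariate for *Xist*, and the 2 lower became 1 with every scaling, with eBayes without trend, with only the compared stages fitted and with the *Xist* covariate. At P7d against E18.5d the 2 higher became 1 with an equal column sum, 1 with a mean of at least 5 FPKM (where *Rbfox1* is not tested) and 4 with each of the other 3 scalings, and the 4 lower became 1 with each of the 4 scalings. Without the 4 hearts with *Xist* all 6 counts were 0, a fit with fewer hearts, and an absolute log2 change of at least 1 left 0 besides *Rbfox1* (1 higher at P7d against E18.5d). Leaving out 1 heart gave 2 to 3 higher and 2 to 3 lower at P1d against E18.5d, 3 to 4 and 1 to 2 at P7d against P1d, and 1 to 3 and 2 to 4 at P7d against E18.5d. Of the ratios, leaving out 1 heart gave *Celf1* to *Celf2* a P7d minus E18.5d log2 difference of -0.53 to -0.23 (adjusted p 0.0107 to 0.0750) and *Rbm20* to *Ptbp1* one of 0.18 to 0.45 (adjusted p 0.0268 to 0.176). Where no reason is given above, the cause was not tested.

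The replicate numbers gave no sign of pairing the hearts: deviations of same-numbered hearts from their stage means correlated by -0.05 to 0.11. Those of differently numbered hearts correlated by -0.18 to 0.13. With 3 hearts per stage, these values cannot tell whether hearts shared a litter or a batch. With the replicate number as a block, the counts were 2 higher and 2 lower, 3 higher and 1 lower, and 2 higher and 4 lower. The block left the ratios' P7d minus E18.5d differences at 2.07 (*Rbfox1* to *Rbfox2*), -0.40 (*Celf1* to *Celf2*), 0.71 (*Mbnl1* to *Celf1*) and -0.15 (*Rbm24* to *Rbm38*). Each of these ratios had an adjusted p of 0.0667 by the exact permutation test within blocks. Fewer rearrangements exist within blocks, and why the calls were lost was not tested.

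The log2 changes that turned sign were small. For *Mbnl1* at P1d against E18.5d they were 0.0062 (nuclear sum), 0.059 (median of ratios), 0.019 (quantile), 0.038 (*Xist* covariate) and 0.023 (without the *Xist* hearts), and leaving out 1 heart gave -0.039 to 0.016. *Mbnl2* had -0.16 (equal sum), -0.052 (without the *Xist* hearts) and -0.022 to 0.041 (leaving out 1 heart) there, and -0.018 and -0.070 without the *Xist* hearts at P7d against P1d and E18.5d. *Celf2* had -0.090 (equal sum) at P1d, and 0.067 (nuclear sum), 0.12 (median of ratios) and 0.071 (quantile) at P7d against E18.5d. *Rbm20* at P7d against P1d had 0.096 (equal sum), 0.10 (nuclear sum and median of ratios), 0.041 (quantile) and -0.073 to 0.0025 (leaving out 1 heart). *Rbfox2* had 0.021 at P1d and 0.00091 at P7d against E18.5d with median of ratios. At P7d against E18.5d *Rbm24* had 0.0050 (nuclear sum) and 0.058 (median of ratios), and *Ptbp1* 0.048 (nuclear sum), 0.10 (median of ratios) and 0.033 (quantile).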
